A study of Mus musculus with 20 samples.

Results

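Semaphorins, plexins and neuropilins form 1 signalling family, and all 31 of its members that were looked for were found among the 45706 genes of the count tables. The set was taken by name and holds 20 semaphorins (Sema3a to Sema3g, Sema4a to Sema4d, Sema4f, Sema4g, Sema5a, Sema5b, Sema6a to Sema6d and Sema7a), 9 plexins (Plxna1 to Plxna4, Plxnb1 to Plxnb3, Plxnc1 and Plxnd1) and the neuropilins Nrp1 and Nrp2. RNA-Seq counts came from 6 groups of the mouse mammary cancer model MMTV-PyMT, in which the polyoma middle T oncogene is expressed in mammary epithelium. Breast tumors of 18-week-old mice formed 2 groups of 4. They were MMTV-cre;Ctsd-/- tumors, in which the cre recombinase removes the lysosomal protease cathepsin D (Ctsd) from mammary epithelium only, and tumors of control mice, which the labels call wild type and which kept functional Ctsd. Both transgenes are driven by the MMTV promoter, so the stroma of an MMTV-cre;Ctsd-/- tumor was not targeted. Spontaneously immortalized PyMT tumor cells formed the other 4 groups of 3 cultures each: Ctsd+/+ and Ctsd-/- cells after 10 days in medium with 1% fetal calf serum (1% FCS), a mild starvation, and after 12 weeks in it (1% FCS LT). The study worked with 1 cell line of each genotype, so that line and genotype cannot be told apart. P-values in cells measure only the spread between repeat cultures of a line.

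Semaphorins are guidance cues. Those of class 3 are secreted, those of classes 4, 5 and 6 span the membrane and Sema7a is held in it by a lipid anchor. Plexins are their receptors, large transmembrane proteins whose inner part acts on small GTPases and, through them, on integrin adhesion and the actin cytoskeleton. Most class 3 semaphorins cannot bind a plexin alone and need Nrp1 or Nrp2, which are also coreceptors for growth factors of the VEGF family. The family was first known from axon guidance, and it also shapes blood vessels, immune cell traffic and the branching of epithelia such as the mammary gland.

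The tumor libraries held 49725437 to 64291587 counts on genes and the cell libraries 33622831 to 40239762. Levels are given as CPM, the counts of a gene scaled to a common library size by TMM, within tumors and within cells separately. Levels of different genes are compared only as CPM per kb of exon. Ctsd itself was at 1860, 2617, 1781 and 2532 CPM in the control tumors and at 797, 360, 1295 and 1233 CPM in the MMTV-cre;Ctsd-/- tumors. In cells it was at 1267 to 4199 and 1627 to 1895 CPM in the Ctsd+/+ groups and at 131 to 192 and 114 to 151 CPM in the Ctsd-/- groups, 1% FCS first. The 9 luminal epithelial markers summed to 5200 to 11055 CPM in 9 of the 12 cell samples but only to 1012, 1545 and 1856 CPM in the 3 Ctsd+/+ 1% FCS cultures. These 3 cultures also stood apart in the 10 fibroblast markers, which summed to 2329, 3847 and 1771 CPM there. The sums were 12.3, 5.28 and 5.79 CPM in Ctsd-/- 1% FCS, 4.13, 7.27 and 9.0 CPM in Ctsd+/+ 1% FCS LT and 178, 49.2 and 11.2 CPM in Ctsd-/- 1% FCS LT. In Ctsd+/+ 1% FCS the sum rests on part of the list, with Col1a1 at 531 to 2320 CPM and Pdgfrb at 160 to 694 CPM. Col1a2 was at only 0.510 to 3.69 CPM there, and Lum and Thy1 were at 0. Every comparison with the Ctsd+/+ 1% FCS group therefore moves together with the luminal and fibroblast sums, and the part of these markers in the results was not tested. The 8 myoepithelial markers summed to 46.6, 103 and 59.5 CPM in Ctsd+/+ and 5.84, 8.22 and 8.63 CPM in Ctsd-/- 1% FCS cells, and to 77.1, 66.9 and 19.3 and 5.79, 5.00 and 4.31 CPM at 1% FCS LT. The 10 macrophage markers summed to 19.0, 22.8 and 27.9 and 49.1, 40.8 and 33.4 CPM at 1% FCS and to 75.7, 87.3 and 94.7 and 32.1, 38.2 and 50.9 CPM at 1% FCS LT, where Csf1r was at 53.0 to 58.2 CPM in Ctsd+/+ and 2.66 to 6.90 CPM in Ctsd-/- cells while C1qa, C1qb and C1qc were at or near 0. Their part in the differences between genotypes was not tested either. Markers of endothelium summed to at most 6.45 CPM and those of T and B cells to at most 0.330 CPM in any culture.

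**Figure D1:**
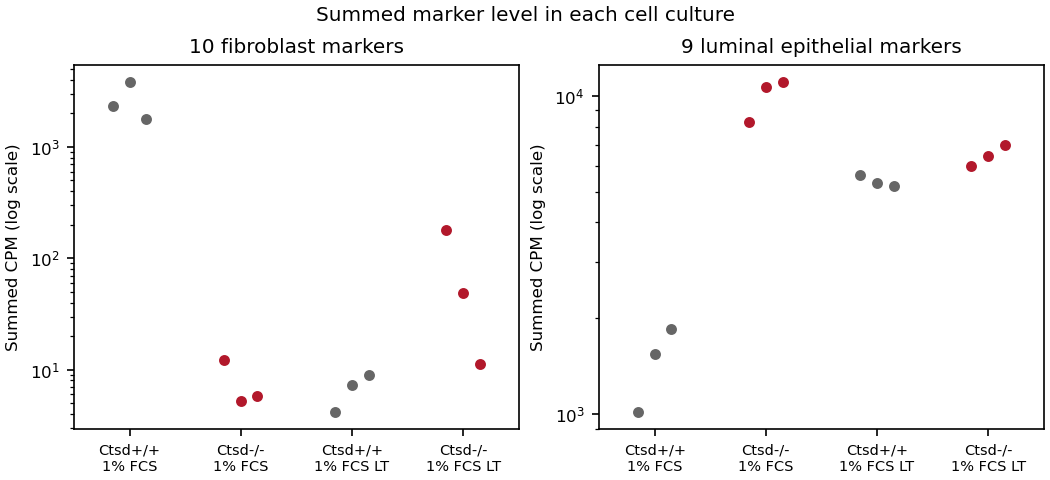
Summed CPM (log scale) of 10 fibroblast markers (left) and 9 luminal epithelial markers (right) in each of the 12 cell cultures, with grey points for Ctsd+/+ and red points for Ctsd-/- cells. The 3 Ctsd+/+ 1% FCS cultures hold the highest fibroblast sums (1771 to 3847 CPM) and the lowest luminal sums (1012 to 1856 CPM).

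Within each group the family was led by a few genes. Plxnb2, a receptor of class 4 semaphorins, had the highest receptor level per length in all 6 groups, with 15.1 ± 4.99 CPM per kb in control tumors, 19.5 ± 4.82 in MMTV-cre;Ctsd-/- tumors, 118 ± 12.1 in Ctsd+/+ 1% FCS, 131 ± 7.51 in Ctsd-/- 1% FCS, 157 ± 4.59 in Ctsd+/+ 1% FCS LT and 103 ± 4.37 in Ctsd-/- 1% FCS LT (SD, n = 4 or 3). It made up 40.7% to 64.5% of the summed receptor level of a group. Plxna1 followed it in all 4 cell groups. Among the ligands the leading gene changed with the group. By the mean, Sema4a, a membrane-bound ligand of epithelial and immune cells, led in both tumor groups with 5.73 ± 2.13 and 8.77 ± 1.78 CPM per kb. Sema4c, the ligand of Plxnb2, led in Ctsd-/- cells at both times with 16.4 ± 0.816 and 14.8 ± 0.699 CPM per kb. In Ctsd+/+ 1% FCS cells no ligand led in every culture. Sema7a had the highest mean there (44.8 ± 41.6 CPM per kb), which rests on culture 2, since its values in cultures 1 to 3 were 16.9, 92.6 and 24.8 CPM per kb, beside 46.5, 17.8 and 8.37 CPM per kb for Sema3c. Without culture 2 the mean of Sema7a was 20.9 and that of Sema3c 27.4 CPM per kb. In Ctsd+/+ cells Sema3c led at 1% FCS LT with 37.0 ± 10.1 CPM per kb. The summed level of the 20 ligands was 84.8 to 181 CPM per kb in Ctsd+/+ 1% FCS cultures and 51.2 to 65.5 CPM per kb in Ctsd-/- 1% FCS cultures, which did not overlap. After 12 weeks it was 86.2 to 105 against 50.7 to 57.3 CPM per kb. Sema3g, Sema5b and Plxnc1 had too few counts in cells to be tested. Plxnc1, the receptor of Sema7a, had 0 counts in all 6 Ctsd-/- cultures and 0 to 8 counts in the Ctsd+/+ cultures, and Sema5b had 2 to 5 counts in Ctsd+/+ 1% FCS LT and 0 in the other 9.

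**Figure D2:**
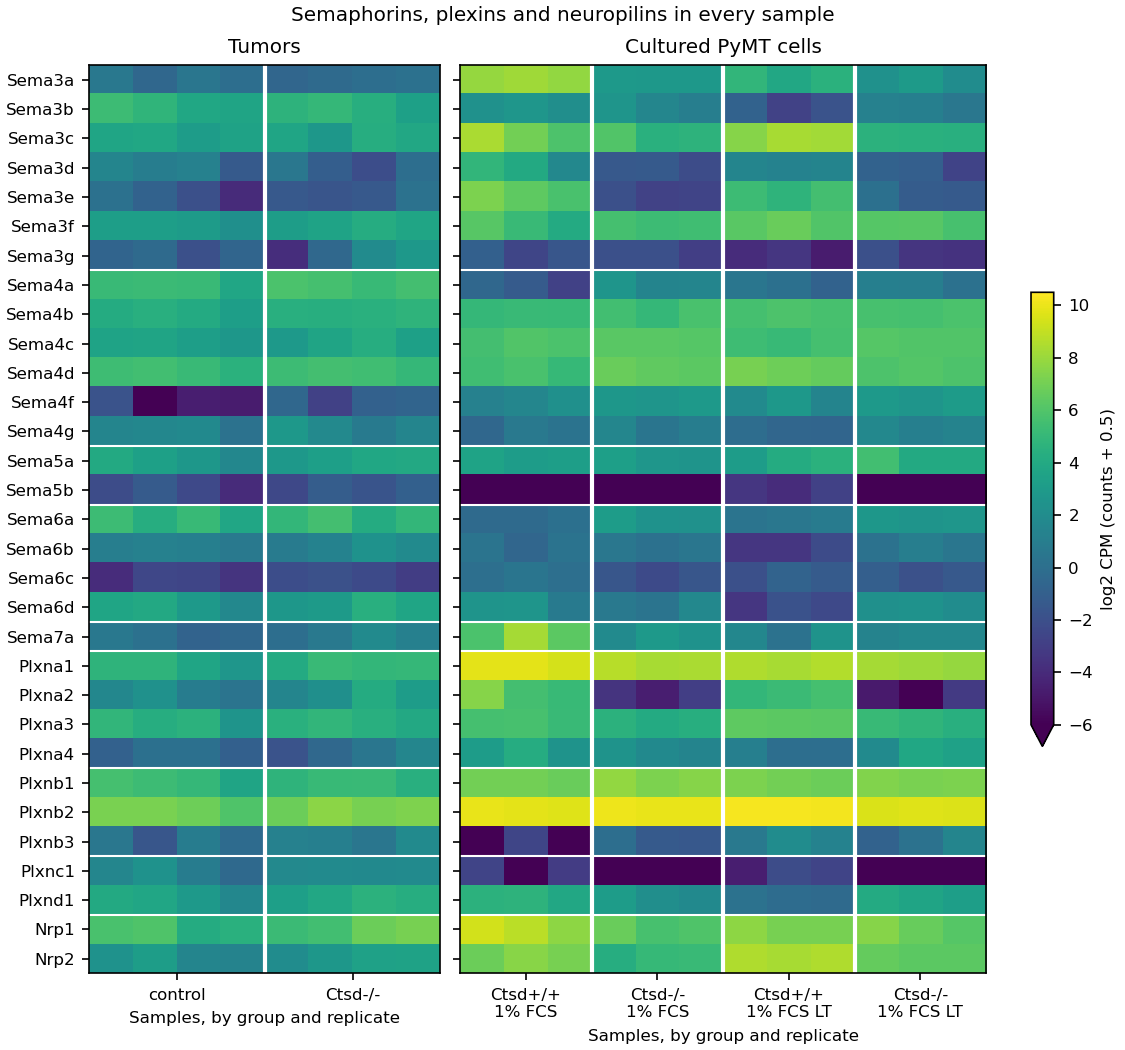
Colour gives the log2 CPM (with 0.5 added to each count) of the 31 members, in rows, in each of the 8 tumors and 12 cell samples, in columns by group, with white lines between classes of genes and between groups. Tumors and cells were scaled separately, and the rows of Sema3a, Sema3e and Plxna2 are brighter in Ctsd+/+ than in Ctsd-/- cells at both times.

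Fold changes, given with their standard errors after ±, and p-values come from edgeR's quasi-likelihood test with Benjamini-Hochberg adjustment over all genes. For the comparison of genotypes at 1% FCS, genes were called past a log2 fold change (FC) of 1 in either direction where the adjusted p was also under 0.05. Of the 28 members tested, 13 were lower and 4 were higher in Ctsd-/- than in Ctsd+/+ cells, beside 14.6% of all 15178 genes called lower and 10.3% called higher. The lower members were Sema3a, Sema3c, Sema3d, Sema3e, Sema6c, Sema7a, all 4 A-type plexins, Plxnd1, Nrp1 and Nrp2, and the higher ones were Sema4a, Sema4d, Sema6a and Plxnb3. The median log2 FC of the 28 members was -0.83, and that of all genes was 0.00. At 1% FCS LT, where the fibroblast sums were at most 178 CPM, 7 members were lower and 7 were higher, beside 10.1% and 9.24% of all genes. The groups of all 14 did not overlap, beside 97.4% of all genes called in this comparison, and each of the 14 calls was kept whichever single culture was left out. Sema3a, Sema3c, Sema3d, Sema3e, Plxna2, Plxna3 and Nrp2 were lower in Ctsd-/- cells at both times and Sema6a was higher at both, while Plxna4 and Plxnd1 were lower at 1% FCS and higher at 1% FCS LT.

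**Figure D3:**
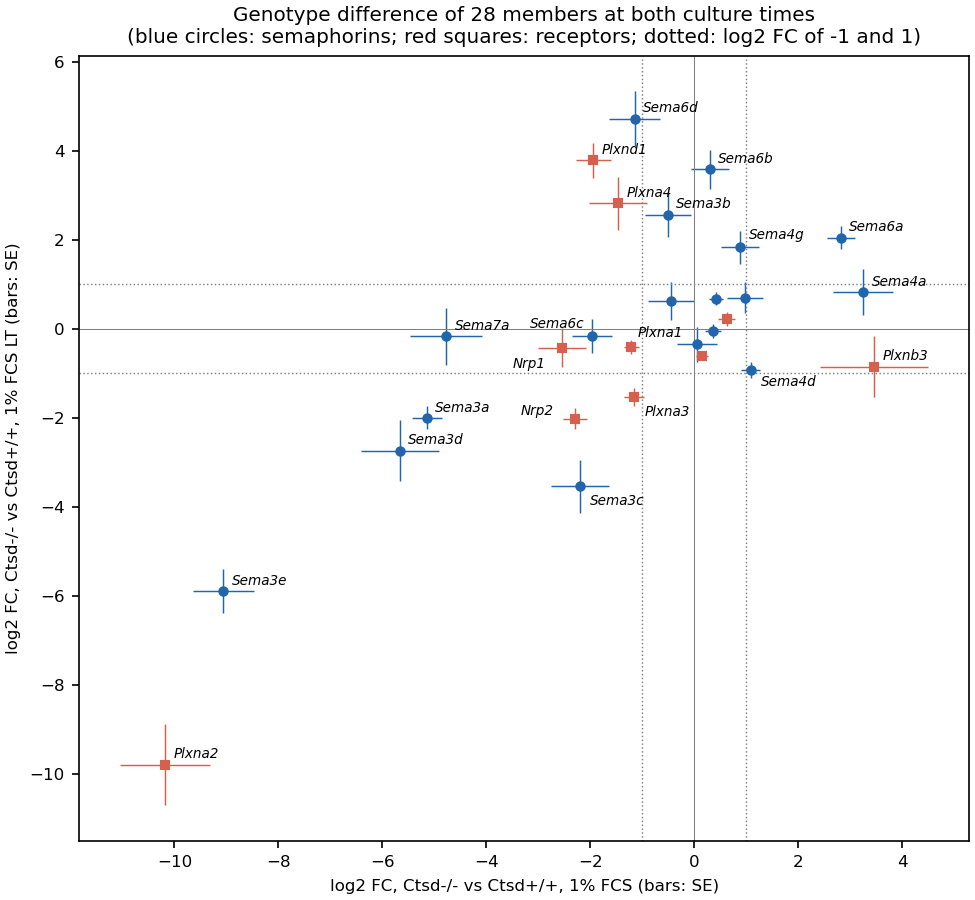
Each point is 1 of 28 members, placed by its log2 FC between Ctsd-/- and Ctsd+/+ cells at 1% FCS (horizontal) and at 1% FCS LT (vertical), with standard errors as bars, and members beyond a log2 FC of 1 on either axis are named. Plxna2 and Sema3e lie farthest to the lower left, and Plxnd1, Plxna4 and Sema6d lie in the upper left.

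Of the secreted class 3 ligands, 4 of the 6 tested were lower in Ctsd-/- cells at both times. Beside this, 14.6% of all genes were called lower at 1% FCS and 10.1% at 1% FCS LT, and the share lower at both was not determined. Sema3a, which acts through Nrp1 and A-type plexins and repels growing axons and endothelial cells, was at 236, 286 and 225 CPM in Ctsd+/+ and at 7.30, 6.93 and 6.89 CPM in Ctsd-/- 1% FCS cells. In the long-term cultures it was at 29.2, 14.6 and 23.6 CPM in Ctsd+/+ and at 5.03, 7.83 and 4.04 CPM in Ctsd-/- cells. The Ctsd+/+ cultures were thus the higher ones at both times, without overlap, although the difference narrowed from a log2 FC of -5.15 ± 0.29 (adjusted p = 1.9e-07) to -2.0 ± 0.26 (adjusted p = 1.2e-04). Sema3e, which binds Plxnd1 without a neuropilin and steers vessels, was at 153, 85.6 and 53.3 against 0.243, 0.137 and 0.148 CPM at 1% FCS. It was at 39.7, 26.5 and 47.2 against 1.08, 0.412 and 0.387 CPM at 1% FCS LT. The lowest Ctsd+/+ culture was 219-fold above the highest Ctsd-/- culture at 1% FCS and 24.6-fold above it at 1% FCS LT (adjusted p = 4.4e-07 and 4.5e-06). Its counts in Ctsd-/- cells were 5 to 10 at 1% FCS and 16 to 45 at 1% FCS LT, so that the size of the fold rests on few reads.

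Sema3c, a ligand of Nrp1, Nrp2 and Plxnd1 that is known from heart outflow tract development, was at 332, 127 and 59.8 against 65.4, 22.5 and 25.1 CPM at 1% FCS. The groups overlapped there (log2 FC = -2.20 ± 0.56, adjusted p = 0.00659). At the later time its values of 182, 316 and 295 and 24.4, 22.7 and 21.4 CPM did not (log2 FC = -3.54 ± 0.59, adjusted p = 6.0e-04). Sema3d, another neuropilin ligand, was at 29.5, 16.3 and 3.27 against 0.365, 0.383 and 0.207 CPM at 1% FCS. After 12 weeks it was at 2.86, 2.42 and 2.66 against 0.551, 0.489 and 0.145 CPM. It was lower in Ctsd-/- cells at 1% FCS (log2 FC = -5.66 ± 0.75, adjusted p = 8.0e-05) and at 1% FCS LT (log2 FC = -2.74 ± 0.69, adjusted p = 0.00774). For the latter limma-voom gave an adjusted p of 0.0890. Sema3b, known as a growth inhibitor, was at 5.07, 6.32 and 4.53 against 6.13, 2.93 and 2.10 CPM at 1% FCS, which did not pass the test. It was at 0.567, 0.133 and 0.279 CPM (5 to 21 counts) against 2.32, 2.11 and 1.43 CPM at 1% FCS LT, where it was higher in Ctsd-/- cells (log2 FC = 2.57 ± 0.51, adjusted p = 0.00183). Sema3f, a ligand of Nrp2, was called in neither (17.0 to 73.9 against 39.8 to 49.9 CPM, then 65.3 to 104 against 50.9 to 73.5 CPM). Sema3f was the class 3 ligand with the highest level per length in Ctsd-/- cells at both times (8.47 ± 1.01 and 12.5 ± 2.37 CPM per kb).

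**Figure D4:**
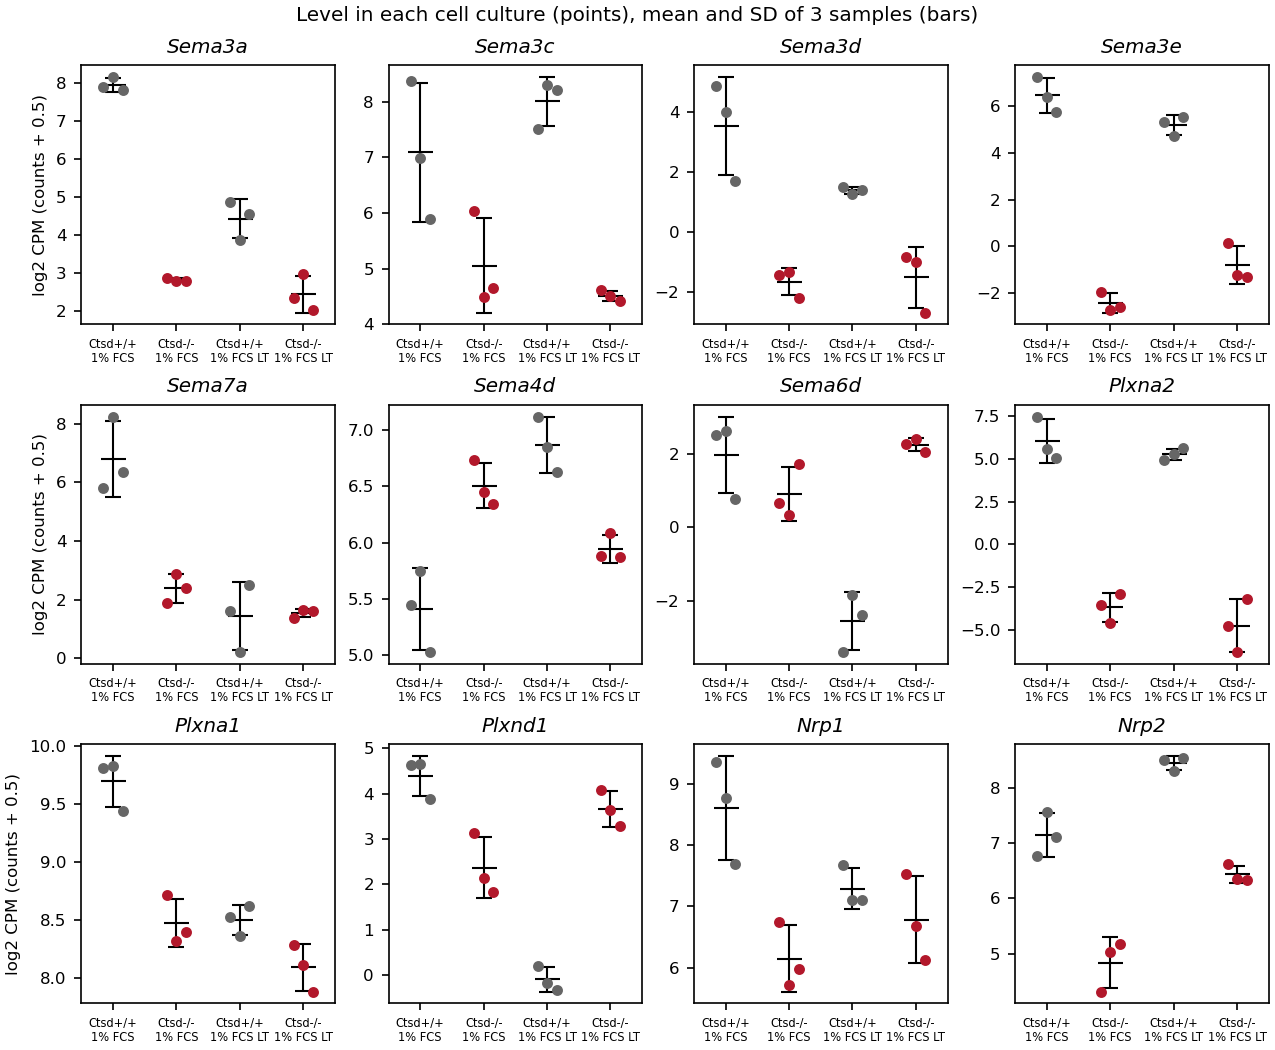
Level of 12 members in each of the 12 cell cultures, as log2 CPM with 0.5 added to each count (vertical), by genotype and culture time (horizontal), with grey points for Ctsd+/+ and red for Ctsd-/- cells and bars for the mean and SD of 3 cultures. Sema3a, Sema3e, Plxna2 and Nrp2 are higher in Ctsd+/+ cultures at both times, and Sema6d and Plxnd1 are lowest in the Ctsd+/+ 1% FCS LT cultures.

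The 4 class 3 ligands that were lower at both times lie together on chromosome 5 (GRCm38), Sema3d at chr5:12383385-12588948, Sema3a at chr5:13125414-13602565, Sema3e at chr5:14025276-14256689 and Sema3c at chr5:17574281-17730268. This shared position was noticed after the values were seen. Within the stretch chr5:12383385-17730268, 6 other genes passed the filter. At 1% FCS, Speer3 and Gm6650 were higher in Ctsd-/- cells (log2 FC of 2.13 and 2.28), Gm43719 and the calcium channel subunit gene Cacna2d1 were lower (log2 FC of -5.44 and -3.02), and Gm10108 and Pclo were not called. At 1% FCS LT the direction of the 4 called genes was unchanged and Pclo was lower as well (log2 FC of -2.52). Of the 6, 2 were thus higher and 2 lower at 1% FCS, beside 10.3% and 14.6% of all genes. At 1% FCS LT 2 were higher and 3 lower, beside 9.24% and 10.1%. Their median log2 FC was 0.07 at 1% FCS and -1.08 at 1% FCS LT. A cause shared by the region was not tested.

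Sema7a, which signals through Plxnc1 and through integrins that contain Itga1, ranged widely in Ctsd+/+ 1% FCS cells. It was at 55.9, 305 and 81.7 CPM there and at 3.67, 7.31 and 5.29 CPM in Ctsd-/- 1% FCS cells (log2 FC = -4.77 ± 0.69, adjusted p = 1.5e-04). In the long-term cultures the groups overlapped, with 3.05, 1.15 and 5.65 and 2.61, 3.12 and 3.05 CPM. Sema3e, Sema7a and the Sema3e receptor Plxnd1 are 3 of the 9 members that were lower in Ctsd-/- than in Ctsd+/+ cells at 1% FCS and that also fell in Ctsd+/+ cells with culture time, and these 3 were chosen after their values were seen. The 250 bases before their starts in RefSeq (GRCm38.p6) are shown, each read 5′ to 3′ on the strand of the gene, with CG dinucleotides in capitals because CG density sets apart broad from focused promoters.
Sema3e, chr5:14025026-14025275, plus strand: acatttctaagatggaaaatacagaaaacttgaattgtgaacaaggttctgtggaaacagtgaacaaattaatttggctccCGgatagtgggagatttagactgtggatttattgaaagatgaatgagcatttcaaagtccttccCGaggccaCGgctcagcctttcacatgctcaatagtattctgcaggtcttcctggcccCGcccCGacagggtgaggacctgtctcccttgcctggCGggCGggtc
Plxnd1, chr6:115995006-115995255, minus strand: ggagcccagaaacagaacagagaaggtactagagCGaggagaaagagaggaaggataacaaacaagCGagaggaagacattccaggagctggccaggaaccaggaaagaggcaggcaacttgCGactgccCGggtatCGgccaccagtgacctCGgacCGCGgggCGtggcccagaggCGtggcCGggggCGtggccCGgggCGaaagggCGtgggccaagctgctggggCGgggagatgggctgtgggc
Sema7a, chr9:57939862-57940111, plus strand: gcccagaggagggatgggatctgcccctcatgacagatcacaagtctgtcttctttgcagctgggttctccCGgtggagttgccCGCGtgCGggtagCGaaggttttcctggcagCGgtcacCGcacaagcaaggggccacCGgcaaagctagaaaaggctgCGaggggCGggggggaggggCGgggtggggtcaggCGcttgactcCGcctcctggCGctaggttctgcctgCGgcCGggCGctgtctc

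The Sema3e window held 7 CG dinucleotides, that of Plxnd1 held 16 and that of Sema7a held 17, beside a median of 6 over 32817 windows of the same length in the table and of 13 over the 37 windows of 26 members. These windows were searched on both strands for TGACG, the core of the element bound by the cAMP-responsive factor CREB that the study followed, and for CACCTG, an E-box that SNAIL and ZEB repressors recognise, motifs that do not overlap each other. None of the 3 windows held either. Of the 37 member windows, 1 (2.7%) held TGACG and 5 (13.5%) held CACCTG, beside 17.7% and 17.2% of all windows. The window of Sema3d, another of the 9, held both motifs. A match or its absence describes these letters only.

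In class 4, whose ligands span the membrane, Sema4a and Sema4d were higher in Ctsd-/- than in Ctsd+/+ cells at 1% FCS, and no member of the class was called lower at either time. Sema4d, a ligand of Plxnb1 and Plxnb2 that promotes vessel growth and is also known as CD100 on lymphocytes, was at 43.8, 53.8 and 32.6 against 106, 87.4 and 81.0 CPM (log2 FC = 1.08 ± 0.18, adjusted p = 5.1e-04). At the later time the order was turned, at 139, 115 and 98.8 against 59.1, 68.2 and 58.5 CPM, with a log2 FC of -0.92 ± 0.18 (adjusted p = 0.00181) that stayed under the fold threshold. The call at 1% FCS was also near that threshold and was lost without Ctsd+/+ culture 3 (log2 FC of 0.89) or Ctsd-/- culture 1 (0.96) and within samples of 1 LR number (0.96), a number of the sample descriptions that culture 1 of both 1% FCS groups and culture 3 of both 1% FCS LT groups do not share with the other cultures. Sema4a was at 0.690, 0.397 and 0.131 against 6.08, 2.66 and 2.78 CPM at 1% FCS (log2 FC = 3.25 ± 0.58, adjusted p = 6.8e-04). It was at 1.41, 1.04 and 0.558 against 2.20, 2.03 and 1.11 CPM at 1% FCS LT, where the groups overlapped. Sema4g was called at 1% FCS LT, where it was higher in Ctsd-/- cells with 0.919, 0.666 and 0.634 against 3.21, 2.19 and 2.59 CPM (log2 FC = 1.84 ± 0.37, adjusted p = 0.00207). Its 1% FCS values of 0.690, 1.56 and 1.20 and 3.02, 1.34 and 1.98 CPM gave a log2 FC of 0.88 ± 0.36. Sema4b, Sema4c and Sema4f stayed within a log2 FC of 1 at both times, and of these Sema4c was higher in Ctsd-/- cells without overlap at both (47.0 to 65.9 against 71.1 to 78.4 CPM, then 35.3 to 50.2 against 65.6 to 71.5 CPM, adjusted p = 0.0292 and 0.00266).

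Class 6 ligands bind A-type plexins directly. Sema6a was higher in Ctsd-/- cells at both times. It was at 0.810, 0.794 and 1.07 against 8.66, 5.34 and 5.03 CPM at 1% FCS (log2 FC = 2.82 ± 0.27, adjusted p = 7.1e-06) and at 1% FCS LT at 1.24, 1.47 and 1.83 against 6.51, 5.87 and 6.39 CPM (log2 FC = 2.05 ± 0.26, adjusted p = 8.5e-05). Sema6d, which acts through Plxna1, was at 5.67, 6.14 and 1.67 against 1.56, 1.23 and 3.28 CPM at 1% FCS, a difference that missed the threshold (adjusted p = 0.0709). After 12 weeks it was at 0.0811, 0.266 and 0.177 CPM in Ctsd+/+ cells, with 3 to 10 counts per library, and at 4.81, 5.28 and 4.14 CPM in Ctsd-/- cells (log2 FC = 4.73 ± 0.61, adjusted p = 9.9e-05). Sema6b overlapped between genotypes at 1% FCS, with 1.29, 0.672 and 1.20 against 1.46, 1.10 and 1.36 CPM. In the long-term cultures it was higher in Ctsd-/- cells, with 0.0811, 0.0799 and 0.203 CPM (3 to 8 counts) against 1.13, 2.03 and 1.38 CPM (log2 FC = 3.59 ± 0.44, adjusted p = 7.1e-05). Sema6c alone was lower in Ctsd-/- cells at 1% FCS, at 0.990, 1.31 and 0.994 against 0.316, 0.192 and 0.325 CPM (log2 FC = -1.97 ± 0.39, adjusted p = 0.00135). This rests on few reads, 33 to 43 counts in Ctsd+/+ and 7 to 13 counts in Ctsd-/- cultures. Its 1% FCS LT values of 0.243, 0.586 and 0.406 and 0.479, 0.257 and 0.363 CPM overlapped. Sema5a, the class 5 ligand with enough reads, was called at neither time.

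All 4 A-type plexins, the partners of neuropilins and receptors of class 6 ligands, were lower in Ctsd-/- cells at 1% FCS. Plxna2 was the most extreme member. It was at 180, 47.1 and 34.1 CPM in Ctsd+/+ 1% FCS and 30.8, 38.5 and 49.2 CPM in Ctsd+/+ 1% FCS LT cultures, but had only 3, 1 and 4 counts in the Ctsd-/- 1% FCS and 1, 0 and 4 counts in the Ctsd-/- 1% FCS LT cultures. The lowest Ctsd+/+ culture was 288-fold above the highest Ctsd-/- culture at 1% FCS and 318-fold above it at 1% FCS LT (adjusted p = 3.3e-06 and 9.0e-06). Plxna1 was at 895, 908 and 693 against 418, 320 and 336 CPM at 1% FCS (log2 FC = -1.21 ± 0.15, adjusted p = 5.7e-05). It was at 368, 329 and 393 against 311, 276 and 236 CPM at 1% FCS LT, where it was not called (log2 FC = -0.41 ± 0.15, adjusted p = 0.0511). Plxna3, a receptor for Nrp2 complexes on the X chromosome, was at 49.4, 52.3 and 36.0 against 24.7, 16.7 and 20.2 CPM at 1% FCS. At the later time it was at 85.4, 81.0 and 79.2 against 35.6, 27.6 and 21.2 CPM, and it was lower in Ctsd-/- cells at both times (log2 FC = -1.16 ± 0.20 and -1.54 ± 0.20). Plxna4 was at 8.79, 18.7 and 5.57 against 5.60, 3.53 and 2.72 CPM at 1% FCS, with overlap, and at 2.13, 0.959 and 0.938 against 3.69, 14.2 and 10.7 CPM at 1% FCS LT. Its higher level in Ctsd-/- cells at 1% FCS LT passed the test (log2 FC = 2.82 ± 0.59, adjusted p = 0.00259) and was kept in every leave-out. The call at 1% FCS was close to the threshold (adjusted p = 0.0436). It was lost without Ctsd+/+ culture 1 or 2 or without Ctsd-/- culture 2 or 3 (adjusted p = 0.0504 to 0.22). It was also lost with limma-voom (0.0829), with the replicate number as a block (0.0620), with the LR number as a covariate (0.0561) and within samples of 1 LR number (0.0637).

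Plxnd1, the receptor of Sema3e that restrains vessel sprouting, was called in opposite directions at the 2 times. Its values were 24.8, 25 and 14.7 CPM in Ctsd+/+ and 8.76, 4.38 and 3.58 CPM in Ctsd-/- 1% FCS cells (log2 FC = -1.94 ± 0.34, adjusted p = 6.7e-04). After 12 weeks they were 1.13, 0.879 and 0.786 and 16.8, 12.5 and 9.68 CPM (log2 FC = 3.79 ± 0.39, adjusted p = 1.8e-05), without overlap at either time. Of the B-type plexins, Plxnb1 and Plxnb2 were expressed in every culture, the latter at 763 to 1238 CPM. Neither reached a log2 FC of 1 between genotypes, although Plxnb1 was higher in Ctsd-/- cells at 1% FCS (log2 FC = 0.62 ± 0.16, adjusted p = 0.00596) and Plxnb2 lower at 1% FCS LT (log2 FC = -0.60 ± 0.11, adjusted p = 9.7e-04). Plxnb3, a receptor of Sema5a, had 0, 5 and 0 counts in Ctsd+/+ and 39, 14 and 12 counts in Ctsd-/- 1% FCS cultures, so that its call (adjusted p = 0.0163) rests on few reads and was lost without Ctsd+/+ culture 1 or 3 or Ctsd-/- culture 1 (adjusted p = 0.0521 to 0.0617) and within samples of 1 LR number (0.110).

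Both neuropilins were lower in Ctsd-/- cells at 1% FCS. Nrp1, coreceptor for Sema3a and VEGF-A, was at 658, 436 and 206 against 107, 52.2 and 63.2 CPM (log2 FC = -2.54 ± 0.46, adjusted p = 7.4e-04). In the long-term cultures it was at 204, 137 and 138 against 185, 102 and 69.7 CPM and the groups overlapped. Nrp2, coreceptor for Sema3f and VEGF-C, was at 109, 189 and 139 against 19.8, 32.7 and 36.1 CPM (log2 FC = -2.30 ± 0.23, adjusted p = 1.2e-05). At the later time it was at 363, 320 and 375 against 98.2, 81.8 and 80.9 CPM (log2 FC = -2.02 ± 0.23, adjusted p = 4.1e-05). Its Ctsd+/+ cultures were the higher ones at both times, without overlap.

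The next comparisons asked how the family changed from 10 days to 12 weeks of starvation within a genotype. In Ctsd+/+ cells 12 of 28 members were lower and 3 were higher at 1% FCS LT, beside 12.3% of all genes called lower and 11.0% called higher, and the groups of all 15 did not overlap, beside 97.1% of all genes called in this comparison. The fall reached every class of ligand but classes 4 and 5. The largest falls were those of Sema7a (log2 FC = -5.49 ± 0.71, adjusted p = 8.3e-05), Sema6d (log2 FC = -4.65 ± 0.61, adjusted p = 8.6e-05) and Plxnd1 (log2 FC = -4.52 ± 0.40, adjusted p = 4.2e-06). Sema3b (log2 FC = -4.01 ± 0.52, adjusted p = 7.9e-05) and Sema3a (log2 FC = -3.47 ± 0.27, adjusted p = 1.9e-06) followed. Sema6b, Plxna4, Sema3d, Nrp1, Sema6c, Sema3e and Plxna1 were lower as well, with log2 FCs of -3.08 to -1.19. The calls of Sema3e (adjusted p = 0.0105) and Nrp1 (adjusted p = 0.0183) were lost without Ctsd+/+ 1% FCS culture 1 (adjusted p = 0.0507 and 0.0788). That of Nrp1 was also lost without Ctsd+/+ 1% FCS LT culture 2 or 3, with adjusted p of 0.0605 to 0.0788 over the 3 leave-outs. With the LR number as a covariate both were lost (log2 FC of -0.96 for Sema3e, adjusted p of 0.0847 for Nrp1), and within samples of 1 LR number those of Nrp1 (0.0936) and Sema6c (0.0515). Nrp2 (1.28 ± 0.23), Sema4d (1.44 ± 0.18) and Plxnb3 (5.70 ± 0.99, from 0 to 5 counts up to 58 to 152 counts) were the 3 that rose. The fibroblast sum fell along with these members, from 1771 to 3847 CPM down to 4.13 to 9.0 CPM.

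In Ctsd-/- cells 1 of 28 members was called between culture times, beside 1.11% of all genes called higher and 0.369% called lower. Nrp2 rose from 19.8, 32.7 and 36.1 to 98.2, 81.8 and 80.9 CPM (log2 FC = 1.56 ± 0.23, adjusted p = 0.00855). With DESeq2 4 members were called and with the LR number as a covariate 3. The share of all genes called in these settings was not determined, so these counts are not read as a result about the members. In edgeR's test 27 members missed the threshold, and in some of them the 1% FCS and 1% FCS LT values did not overlap. Of these, Plxnd1 (log2 FC = 1.22 ± 0.34, adjusted p = 0.0861), Sema5a (1.80 ± 0.44, 0.0571), Sema3e (1.79 ± 0.69, 0.197), Sema6d (1.23 ± 0.49, 0.212) and Sema3f (0.56 ± 0.39, 0.494) were higher at 1% FCS LT. Sema4d (-0.56 ± 0.18, 0.129), Plxnb2 (-0.35 ± 0.11, 0.115), Plxna1 (-0.39 ± 0.15, 0.207), Sema4a (-1.11 ± 0.51, 0.280) and Sema7a (-0.89 ± 0.64, 0.514) were lower. The share of all uncalled genes without overlap was not determined. The median log2 FC of the 28 members was 0.23, beside -0.00 for all genes.

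The study corrected the change in Ctsd-/- cells for that in Ctsd+/+ cells, which equals the genotype difference at 1% FCS LT minus that at 1% FCS and shares its samples with all 4 comparisons above. In this contrast 11 members were higher and 3 were lower, beside 11.0% and 8.12% of all genes, with a median log2 FC of 0.59 over the 28 members and of -0.00 over all genes. Higher here means relative to the change in Ctsd+/+ cells. Nrp2, the 1 member called over time in Ctsd-/- cells, is not among the 14. Of the 11, Sema7a (-0.89 ± 0.64), Sema3a (-0.32 ± 0.26) and Sema3b (-0.93 ± 0.44) had negative log2 FCs over time in Ctsd-/- cells, and the rest had positive ones. Sema6d (5.88 ± 0.78), Plxnd1 (5.74 ± 0.52), Sema7a (4.6 ± 0.91), Plxna4 (4.30 ± 0.80) and Sema6b (3.29 ± 0.57) had the largest positive log2 FCs (adjusted p = 1.5e-05 to 0.00288). Of the 3 lower members, Sema4d had the smallest error (-2.0 ± 0.26, adjusted p = 1.7e-04). Of the 14 calls, 9 were kept in every leave-out of 1 culture. Those of Sema3d (lost in 10 of 12 leave-outs, adjusted p up to 0.114), Sema4a (7 of 12, up to 0.0798), Nrp1 (6 of 12, up to 0.0601), Sema6c (5 of 12, up to 0.0780) and Plxnb3 (3 of 12, up to 0.0581) were not. Sema3d kept its call only without Ctsd+/+ 1% FCS culture 3 or Ctsd-/- 1% FCS LT culture 3. The cultures whose removal ended the call of Sema4a were 2 and 3 of Ctsd+/+ 1% FCS, 1 of Ctsd-/- 1% FCS, 1 and 2 of Ctsd+/+ 1% FCS LT and 2 and 3 of Ctsd-/- 1% FCS LT. For Nrp1 they were 1 of Ctsd+/+ 1% FCS, 2 and 3 of Ctsd-/- 1% FCS, 2 and 3 of Ctsd+/+ 1% FCS LT and 1 of Ctsd-/- 1% FCS LT. For Sema6c they were 2 of both 1% FCS groups, 1 and 3 of Ctsd+/+ 1% FCS LT and 1 of Ctsd-/- 1% FCS LT. For Plxnb3 they were 1 of Ctsd-/- 1% FCS and 2 of both 1% FCS LT groups. With limma-voom the calls of Sema3d (adjusted p = 0.379) and Sema3e (0.124) were lost, within samples of 1 LR number those of Sema3d (0.0971) and Sema6c (0.0979), and without a count filter that of Sema6c (0.0531).

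Ligands and receptors that are known to bind each other were set side by side as a description, over 21 pairs, 18 of which had both genes tested in cells. At 1% FCS both genes were lower in Ctsd-/- cells in 7 pairs (Sema3a, Sema3c and Sema3d with Nrp1, Sema3c with Nrp2, Sema3c and Sema3e with Plxnd1, and Sema6c with Plxna1). In no pair were both higher, and in 3 the genes went opposite ways. Of the 28 members tested at this time, 13 were lower and 4 higher, and Sema3c, Nrp1 and Plxnd1 each recur among the 7 pairs. The pairs are therefore not separate observations, and the number to be had from unrelated genes was not determined. At 1% FCS LT Sema3c and Nrp2 were the 1 pair with both genes lower, Sema6a and Sema6b with Plxna4 were the 2 pairs with both higher, and 4 pairs went opposite ways, Sema3e and its receptor Plxnd1 among them. In the corrected comparison Sema3a and Sema3d with Nrp1, Sema3e with Plxnd1 and Sema6b with Plxna4 were positive together.

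Other genes of the pathway were described from 4 lists. Of 31 tested genes that act below plexins, 10 were lower and 2 were higher in Ctsd-/- cells at 1% FCS, beside 14.6% and 10.3% of all genes. At 1% FCS LT 4 were higher and 2 lower, in the corrected comparison 8 were higher and 0 lower, beside 11.0% and 8.12% of all genes, and Dpysl5 was the 1 called over time in Ctsd-/- cells. Mical2, an enzyme that oxidises and so takes apart actin filaments, had a mean of 464 ± 103 CPM in Ctsd+/+ and 38.2 ± 9.01 CPM in Ctsd-/- 1% FCS cells, and 11.2 ± 0.744 and 33.1 ± 11.7 CPM at 1% FCS LT (SD, n = 3, log2 FC of the corrected comparison 5.17 ± 0.39). Dpysl3, a collapsin response mediator that passes on Sema3a signals to microtubules and actin, was at 181 ± 111 against 44.5 ± 4.88 CPM and then at 2.64 ± 1.79 against 57.8 ± 14.9 CPM (6.47 ± 0.73). Both fell with culture time in Ctsd+/+ cells and were not called between times in Ctsd-/- cells. Crmp1, a relative of Dpysl3, had 10 to 15 counts in Ctsd+/+ 1% FCS cultures and 0 in all 6 Ctsd-/- cultures.

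Of 11 tested coreceptors and other receptors, 3 were lower and 1 was higher in Ctsd-/- cells at 1% FCS, 2 were higher and 2 lower at 1% FCS LT, and 3 were higher and 1 lower in the corrected comparison. The VEGF receptor Flt1 was at 29.0 to 81.0 against 3.22 to 5.34 CPM and then at 0.186 to 0.406 against 1.72 to 3.81 CPM (log2 FC = 6.83 ± 0.64, adjusted p = 1.9e-05). The Sema7a receptor subunit Itga1 was at 4.74 to 10.1 CPM in Ctsd+/+ 1% FCS and at no more than 0.432 CPM in the other 9 cultures. The cell adhesion molecule Chl1 had 4 to 25 counts in Ctsd+/+ and 0 to 2 counts in Ctsd-/- 1% FCS cultures, and was at 3.42 to 8.10 against 0.0718 to 0.339 CPM at 1% FCS LT (log2 FC = -4.85 ± 0.73, adjusted p = 3.0e-04). Of 5 VEGF family ligands, which share the neuropilins with class 3 semaphorins, 2 were lower and 1 was higher at 1% FCS, 3 were higher and 1 lower at 1% FCS LT, and 3 were higher and 0 lower in the corrected comparison. Pgf was at 5.71 to 21.1 against 52.2 to 65.5 CPM at 1% FCS and at 0.213 to 0.405 against 21.7 to 100 CPM at 1% FCS LT (log2 FC = 7.33 ± 0.72, adjusted p = 1.4e-05). Vegfd was lower in Ctsd-/- cells at 1% FCS, at 1.88 to 53.4 against 0.0296 to 0.110 CPM (log2 FC = -8.02 ± 1.40, adjusted p = 6.1e-04), and Vegfc was positive in the corrected comparison (log2 FC = 2.28 ± 0.25, adjusted p = 4.6e-05). Of 8 proteases that cut semaphorins, 2 were lower and 1 higher at 1% FCS, 2 lower and 1 higher at 1% FCS LT, and 1 lower and 0 higher in the corrected comparison. With so few genes a list, these counts are read only beside the percentages of all genes given above. Mmp14, a membrane-bound metalloprotease that sheds Sema4d, was at 341 to 602 against 0.268 to 0.438 CPM at 1% FCS. After 12 weeks it was at 541 to 674 against 0.287 to 0.463 CPM (log2 FC = -10.29 ± 0.31 and -10.70 ± 0.31). Pcsk5 was lower (log2 FC = -3.54 ± 0.87, adjusted p = 0.00553) and Pcsk6 higher at 1% FCS (log2 FC = 1.15 ± 0.39, adjusted p = 0.0268), both proprotein convertases.

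In tumors the question was whether the family differed between MMTV-cre;Ctsd-/- and control mice. Tumor genes were called by the study's threshold, an unadjusted p under 0.1, and no member passed any adjusted threshold (lowest adjusted p = 0.544). By that threshold 10 of 31 members were higher and 1 was lower in MMTV-cre;Ctsd-/- tumors, beside 8.44% of 18617 genes called higher and 8.27% called lower. The higher ones were Sema3f, Sema3g, Sema4a, Sema4b, Sema4f, Sema6b, Sema7a, Plxna2, Plxnb3 and Nrp1, and the lower one was Sema3d. The median log2 FC of the 31 members was 0.49, beside 0.00 for all genes. In none of the 11 did the 4 control and the 4 MMTV-cre;Ctsd-/- tumors separate without overlap, beside 21.6% of all genes called in tumors. In whole tumors fewer cells of a type and less RNA per cell cannot be told apart. The 2 genotypes also carry different LR numbers in the sample descriptions, so that this number and genotype cannot be told apart.

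Nrp1 was at 53.6, 60.8, 17.8 and 22.0 CPM in the control and at 37.3, 46.2, 111 and 137 CPM in the MMTV-cre;Ctsd-/- tumors (log2 FC = 1.10 ± 0.51, adjusted p = 0.563). Plxna2 was at 3.11, 5.06, 1.94 and 1.27 against 2.81, 4.61, 17.7 and 8.88 CPM (log2 FC = 1.58 ± 0.60, adjusted p = 0.544). Sema3g, an endothelial ligand of Nrp2, was at 0.618, 0.803, 0.249 and 0.634 against 0.0608, 0.738, 3.88 and 6.95 CPM (log2 FC = 2.33 ± 1.02, adjusted p = 0.555). In all 3 genes MMTV-cre;Ctsd-/- tumors 3 and 4 were high and tumors 1 and 2 lay within or below the control range. The 10 endothelial markers summed to 173, 200, 103 and 133 CPM in the control and to 151, 191, 547 and 496 CPM in the MMTV-cre;Ctsd-/- tumors, with tumors 3 and 4 again apart, and 9 of the 10 were called higher. The 8 myoepithelial markers, 2 of which were called higher, summed to 1055, 1384, 853 and 571 CPM in the control and to 612, 878, 2275 and 1466 CPM in the MMTV-cre;Ctsd-/- tumors, where tumors 3 and 4 were also the highest, and their part was not tested. Without tumors 3 and 4, a choice made after seeing the data, 2 members were called in place of 11, 1 of them shared, and the log2 FC of Nrp1 was 0.12, that of Plxna2 0.38 and that of Sema3g -0.52. With the mean endothelial marker level as a covariate 1 member was called, which was none of the 11. The 10 adipocyte markers, all called higher, summed to 960, 3413, 558 and 5742 CPM in the control and to 8351, 3532, 11549 and 24678 CPM in the MMTV-cre;Ctsd-/- tumors, and with their mean as a covariate 4 members were called, 1 of them among the 11. The share of all genes called in these settings was not determined. The lower counts are therefore not read as a result about the members.

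**Figure D5:**
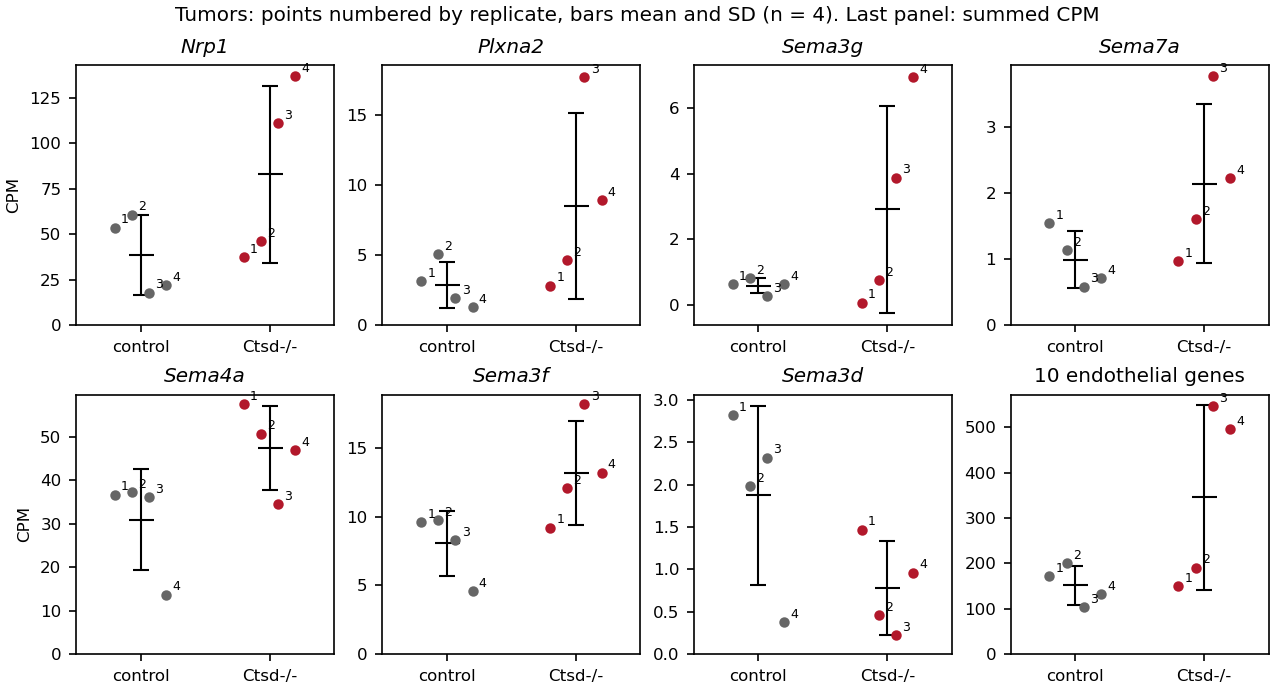
CPM of 7 members, and the summed CPM of 10 endothelial marker genes, in each of 4 control (grey) and 4 MMTV-cre;Ctsd-/- (red) tumors, numbered by replicate, with the mean and SD as bars. MMTV-cre;Ctsd-/- tumors 3 and 4 are the highest in Nrp1, Plxna2, Sema3g and the endothelial sum (496 and 547 CPM), and the groups overlap in each of the 7 members.

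Sema4a did not follow this order. It was at 36.7, 37.3, 36.1 and 13.7 CPM in control and at 57.5, 50.7, 34.5 and 47.0 CPM in MMTV-cre;Ctsd-/- tumors (log2 FC = 0.61 ± 0.31, adjusted p = 0.581), with control tumor 4 far below the rest. It kept its unadjusted call without MMTV-cre;Ctsd-/- tumors 3 and 4 (log2 FC of 0.81) but not without tumor 1, 2 or 4 alone (0.51 to 0.62). Sema7a was at 1.54, 1.13, 0.580 and 0.71 against 0.972, 1.60, 3.77 and 2.22 CPM (log2 FC = 1.11 ± 0.49, adjusted p = 0.556). Sema3d was at 2.82, 1.98, 2.32 and 0.380 against 1.47, 0.461, 0.225 and 0.962 CPM (log2 FC = -1.27 ± 0.68, adjusted p = 0.592). Counts in tumors were taken regardless of strand. Antisense genes overlap members such as Sema3a, Sema3d, Sema3e, Sema4c, Plxna4 and Nrp2. Reads that fell on both genes were ambiguous there and were counted for neither. The share of ambiguous reads was 15.6% for control tumor 4, the smallest library, 12.4% for control tumor 3 and 8.44% and 9.44% for controls 1 and 2. Each MMTV-cre;Ctsd-/- library lay between 7.11% and 9.75%. Controls 3 and 4 were also the lowest controls in Nrp1, Plxna2, Sema4a and Sema7a, but not in Sema3d, Sema3g or Sema4f. Sema3f, Sema4b, Sema6b and Plxnb3 are not compared in this way here. The part of this library difference in the tumor calls was not tested. The 10 fibroblast markers summed to 2465, 3788, 953 and 1076 CPM in the control tumors, with controls 3 and 4 again lowest. In the MMTV-cre;Ctsd-/- tumors they summed to 1829, 2631, 3301 and 2383 CPM, and their part was not tested either. Sema3g and Sema4f were given per tumor after their values were seen. Sema4f had 19, 0, 2 and 1 counts in control and 46, 9, 36 and 37 counts in MMTV-cre;Ctsd-/- tumors, and its call was the 1 of the 11 that was kept whichever single tumor was left out (log2 FC = 2.45 ± 1.01, adjusted p = 0.551). With 1 tumor left out, 4 to 14 members were called. The fewest, 4 each, were found without MMTV-cre;Ctsd-/- tumor 3 or 4, and 5 without control tumor 3. Of the members called in cells, Sema3a (log2 FC = -0.34 ± 0.39), Sema3c (0.22 ± 0.32), Sema3e (0.19 ± 0.78) and Plxnd1 (0.77 ± 0.47) were not called in tumors. Plxna2, Nrp1 and Sema7a, called lower in Ctsd-/- cells at 1% FCS, were higher in MMTV-cre;Ctsd-/- tumors by the unadjusted threshold. Sema4a and Plxnb3, called higher in Ctsd-/- cells at 1% FCS only, and Sema6b, called higher at 1% FCS LT only, were also higher in these tumors. Sema3d, called lower in cells at both times, was also lower in them. Each of these tumor calls was lost in at least 1 leave-out of a single tumor. Levels in tumors and cells were scaled separately from different forms of the counts and were not tested against each other.

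Among the pathway lists in tumors, read beside the same 8.44% and 8.27% of all genes, 1 of 32 plexin effectors was higher and 1 was lower, and 4 of 17 coreceptors and other receptors were higher and 2 lower, Flt1 among the former (4.19 to 13.4 against 5.77 to 43.1 CPM, log2 FC = 1.42 ± 0.56). Of 5 VEGF family ligands 3 were higher and 1 was lower, the latter being Pgf at 42.2 to 90.1 against 18.8 to 42.0 CPM (log2 FC = -1.18 ± 0.31, adjusted p = 0.416). Of 8 proteases that cut semaphorins 2 were higher and 0 lower.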

How the data were processed

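The deposited files hold raw counts per gene. Per the labels and the study's methods, the authors trimmed reads with Trimmomatic, aligned them with STAR to GRCm38 (mm10) and counted reads on genes in 3 forms (regardless of strand, same strand, opposite strand); STAR's version is not given in the sources used here. Libraries were made from tissue RNA for tumors and from a larger input of RNA for cells. Here the counts regardless of strand were used for tumors and those on the opposite strand for cells, because 52.82 to 53.66% of tumor reads and 97.09 to 97.29% of cell reads lay on that strand. Rows that name no gene were left out. The tests were edgeR 4.0.16 quasi-likelihood fits in R 4.3.3 with TMM scaling and filterByExpr, two-sided, with p-values adjusted by Benjamini-Hochberg across the whole table, in 1 fit of the 8 tumors and 1 fit of the 12 cell samples. Calls used an unadjusted p under 0.1 in tumors, and an adjusted p under 0.05 with an absolute log2 fold change above 1 in cells. The test was tested on simulated data. The total counts set the precision of each value, and intervals for single counts were not used.

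Members, lists and pairs were chosen with earlier results of these data known. Members called in cells were given per sample, and from each pathway list at most 3 genes with the largest change among those called. Promoter windows came from RefSeq (GRCm38.p6). Alternatives were limma-voom 3.58.1, DESeq2 1.42.0, RLE factors, other count filters, the replicate number as a block, each sample left out, the other count column, fewer groups in the fit, the LR number of the sample descriptions and, in tumors, marker levels as covariates.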

Additional observations from a re-analysis of the deposited data

Results flagged for a closer look

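Of 62 sets of 4 tumors, 1 per member and genotype, 3 held a tumor far from the others on the log2 scale, and chance alone would flag about 1 in 20. Sema3e was high in MMTV-cre;Ctsd-/- tumor 4 at 1.18 CPM, Sema4a was low in control tumor 4 at 13.7 CPM and Sema4f was low in MMTV-cre;Ctsd-/- tumor 2 at 0.138 CPM.

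In 14 members the genotype difference at 1% FCS LT differed from that at 1% FCS by the interaction test in edgeR. These passed an adjusted p under 0.05 and a log2 FC of 1 in either direction, beside 11.0% of all genes called higher and 8.12% lower. Plxna1 (0.81, adjusted p = 0.0143) and Plxnb2 (-0.75, adjusted p = 0.00323) passed the adjusted p but not the fold threshold. Of the 14 calls, 9 were kept in every leave-out of 1 culture. On the log2 scale the later difference was above the earlier one by 5.88 for Sema6d, 5.74 for Plxnd1, 4.6 for Sema7a, 4.30 for Plxna4, 3.29 for Sema6b, 3.16 for Sema3e, 3.15 for Sema3a, 3.08 for Sema3b, 2.92 for Sema3d, 2.12 for Nrp1 and 1.81 for Sema6c. The change was -4.32 for Plxnb3, -2.42 for Sema4a and -2.0 for Sema4d. The Ctsd+/+ 1% FCS cultures, which enter each of these values, also held the highest fibroblast and the lowest luminal marker sums, and the part of these markers was not tested.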

How the results depend on the processing

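The share of all genes called was not determined under any alternative. Counts of member calls in this section are therefore not read as results about the members. In tumors the 11 member calls became 5 with the replicate number as a block, 4 with adipocyte markers and 1 with endothelial markers as a covariate, 2 without MMTV-cre;Ctsd-/- tumors 3 and 4 (chosen after seeing the data), and 4 to 14 with 1 tumor left out. The log2 FC changed sign for Sema3g (-1.049) and Nrp1 (-0.36) with adipocyte markers, for Sema3g (-1.39), Nrp1 (-0.25), Sema6b (-0.080) and Plxna2 (-0.031) with endothelial markers, and for Sema3g (-0.52) without those tumors. Asking for 10 counts in every sample, which tests fewer members, left 11 of 17 calls at 1% FCS, 8 of 14 at 1% FCS LT, 8 of 15 in Ctsd+/+ cells over time and 6 of 14 in the corrected comparison. The 1 call in Ctsd-/- cells over time became 4 with DESeq2, 3 without a filter, 2 with the block, 3 with the LR number as a covariate and 3 within 1 LR number, where the cause was not tested. With 1 culture left out the calls were 15 to 17, 14 to 15, 1 to 2, 15 to 17 and 10 to 13 for 1% FCS, 1% FCS LT, Ctsd-/- time, Ctsd+/+ time and the corrected comparison. With the replicate block they were 17, 14, 2, 17 and 14, and the 17 at 1% FCS did not include Plxna4. The main tests did not pair samples by replicate number. Same-numbered samples correlated at -0.30 to -0.01 in tumors and at -0.14 to -0.03 in Ctsd+/+ time, where 0 of 4 and 0 of 3 pairs correlated best with their own number. At 1% FCS (0.10 to 0.36) and in Ctsd-/- time (0.077 to 0.192) 3 of 3 pairs did, and at 1% FCS LT (0.002 to 0.119) 2 of 3 did. In these comparisons the number thus goes with some shared variation, and the counts with the replicate block are those given above. Of the values of called members under all alternatives, 1072 kept direction and call, 125 lost the call and 7 changed sign. Of the 20 members not called in tumors, the sign changed in 7 with adipocyte and 8 with endothelial markers and in 7 without tumors 3 and 4. Low counts limit Plxna2, Sema3d and Sema3e in Ctsd-/- cells, Sema3b, Sema4a, Sema6b, Sema6d and Plxnb3 in Ctsd+/+ cells, and Sema6c in both.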
